A study of Mus musculus with 18 samples.

Results

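The translation initiation and elongation factor genes were taken from the count table by symbol: all genes whose symbol starts with Eif or Eef, leaving out the eIF2 kinases (Eif2ak1, Eif2ak2, Eif2ak3 and Eif2ak4) and the symbols starting with Eif4ebp or Eif4enif. The rule gave 54 of the 11243 genes, or 0.480%. They fall into 9 elongation factor genes (Eef), 14 subunits of the scaffold complex eIF3, and 31 other initiation factor genes. Within the Eef genes, 5 encode the general elongation machinery (Eef1a1, Eef1b2, Eef1d, Eef1g and Eef2), and 4 were set apart as enzymes and accessory genes: Eef2k and Eef2kmt, whose products modify eEF2, Eef1e1, and Eefsec, whose product is the elongation factor for selenocysteine alone.

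Initiation brings a ribosome to the start codon of an mRNA. The ternary complex of eIF2, GTP and initiator tRNA joins the small subunit together with eIF1, eIF1A, eIF5 and eIF3, and the eIF4F complex (the cap-binding eIF4E, the scaffold eIF4G and the helicase eIF4A) recruits it to the capped end of the mRNA. Elongation is then driven by eEF1A, which delivers aminoacyl-tRNA, and eEF2, which translocates the ribosome. The kinase mTOR controls this machinery through eIF4E-binding proteins, and many elongation factor mRNAs carry a terminal oligopyrimidine (TOP) stretch at their cap, a feature known for mTOR-sensitive translation.

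All samples were of RAW264.7, a macrophage line of mouse, under 3 treatments. Control cells received vehicle (DMSO), LPS cells received 500 ng/mL lipopolysaccharide, a bacterial ligand that activates macrophages, for 6 h, and the remaining cells received 100 nM torin1, an inhibitor of mTOR, 15 min before the same LPS exposure. Each treatment was made in 3 independent experiments, and both the total mRNA and the mRNA on pooled heavy polysomes (more than 3 ribosomes) of each of the 9 lysates were sequenced, which made 18 libraries. No torin1 group without LPS was analysed here, and all groups are of 1 cell line. The p-values therefore measure the spread between experiments on this line.

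Library totals ran from 27800983 to 47725557 counts, and a factor gene had between 77 and 358352 counts in a library, so every member was tested. All 8 macrophage markers were in the table, with a summed level between 11264.5 and 21606.2 CPM in every library, where CPM are counts scaled to a common library size with TMM factors. Of 6 markers of other cell types, Cdh5 alone was listed, at 0.0659 to 1.45 CPM. These values are relative to the library, so neither cell number nor mRNA per cell can be read from them. Changes on polysomes, and those beyond total mRNA, are likewise relative to the average mRNA. A shift in translation common to most mRNAs would not show here. In primary macrophages the paper reports more puromycin incorporation after LPS, in a way that depended on mTOR.

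In control cells the elongation factors led the machinery. Per kilobase of exon, the mean total mRNA level was 2753 CPM for Eef1a1 and 689 CPM for Eef2, followed by 380 for Eif5a (the hypusinated factor that relieves stalled ribosomes), 271 for Eef1g, 204 for Eif4a1 and 193 for Eif4g2. The eIF3 subunits lay between 98.6 CPM per kilobase for Eif3b and 6.44 for Eif3j1, the loosely bound subunit. Eef2k, the kinase that inactivates eEF2, had the lowest level of the 54 members, at 1.21. Together the members took between 2.16% and 2.41% of the normalised total mRNA of control cells, with 0.995% to 1.19% in the Eef genes, 0.284% to 0.296% in eIF3 and 0.878% to 0.925% in the others.

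In the same cells the mRNAs differed in how far they were on heavy polysomes. Relative to total mRNA, 16 members were higher and 19 lower on polysomes at a false discovery rate (FDR) of 0.25 and a fold of at least 1.2 (edgeR quasi-likelihood test, Benjamini-Hochberg adjustment over all genes). Over all genes 65.5% passed, 34.3% higher and 31.1% lower, so that the factors as a group (64.8%) were near the background. In LPS-treated cells 17 members were higher and 17 lower (61.4% of all genes passed, 32.3% higher and 29.1% lower), and with torin1 15 and 17 (52.4%, 26.1% and 26.3%). The highest ratios were those of Eif5a (log2 ratio 0.95, adjusted p = 3.79e-05) and Eif6, which keeps the large subunit from joining (0.85, adjusted p = 0.00173). The lowest were those of Eif2s3y (−0.87, adjusted p = 0.000743), a gamma subunit of eIF2, and Eif3a, the largest eIF3 subunit (−0.85, adjusted p = 0.00135). Eif5a stood at 886, 917 and 909 CPM in total and at 1934, 1689 and 1605 CPM in polysome-associated mRNA of experiments 1, 2 and 3. Eif3a stood at 639, 577 and 660 CPM against 319, 342 and 380 CPM. Neither pair of groups overlapped.

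Subunits of single complexes sat at opposite ends of this order. Within eIF3, Eif3i (0.65), Eif3g (0.58), Eif3f (0.57) and Eif3k (0.49) were higher on polysomes, while Eif3a, Eif3e (−0.64), Eif3j1 (−0.62), Eif3j2 (−0.51) and Eif3c (−0.51) were lower. Of the eIF2 genes, Eif2s3y, Eif2s2 (−0.70) and Eif2s1 (−0.66) were lower, and Eif2s3x (−0.11) did not pass. All 4 Eef enzymes or accessory genes were higher, whereas of the elongation machinery Eef1a1 was lower (−0.45, adjusted p = 0.0366) and the other 4 did not pass. The log2 ratio fell with exon length across the members (Pearson r = −0.47, Spearman rho = −0.44, n = 54) as it did across all genes with a length (−0.36 and −0.36, n = 10754). These correlations are across genes of the same libraries and are descriptions only.

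**Figure D1:**
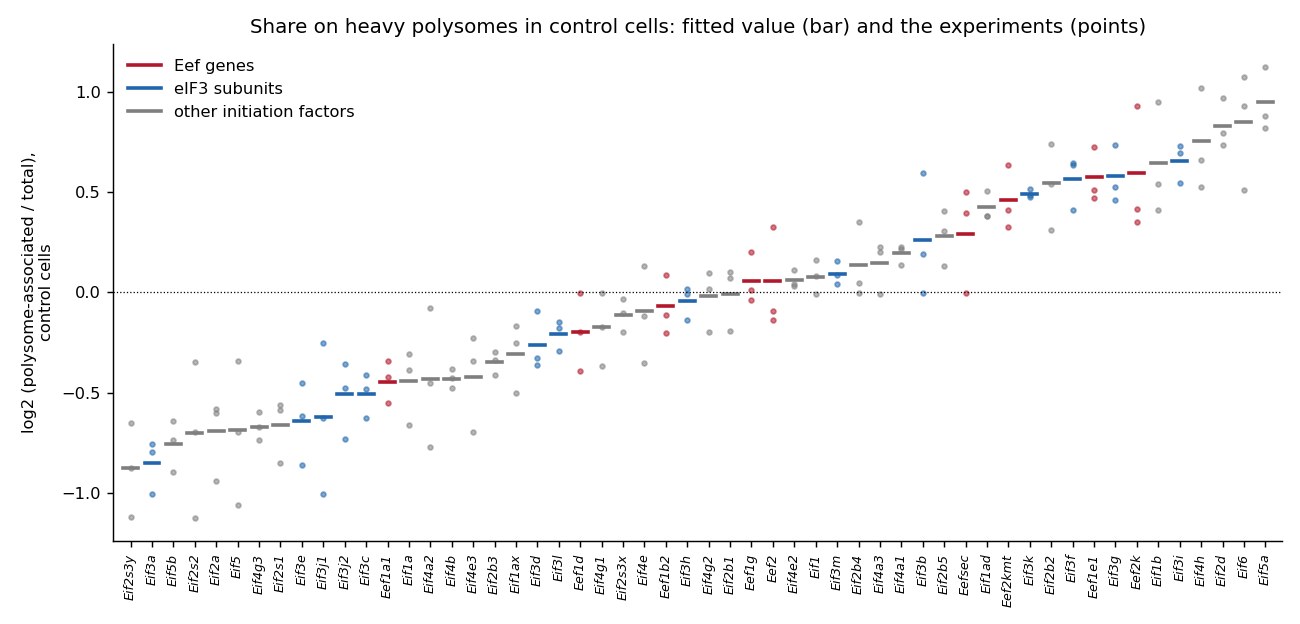
Log2 ratio of polysome-associated to total mRNA in control cells for the 54 members in ascending order, with the fitted ratio as a bar and the 3 experiments as points, colored by class. Subunits of eIF3 (blue) lie at both ends, from Eif3a at −0.85 to Eif3i at 0.65, and Eif5a is the highest at 0.95.

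LPS raised most factor mRNAs. In total mRNA 34 of 54 members (63.0%) were higher and 8 (14.8%) lower after LPS (edgeR, FDR 0.25), where 66.5% of all genes passed, 32.2% higher and 34.3% lower. In polysome-associated mRNA 27 (50.0%) were higher and 7 (13%) lower, where 55.1% of all genes passed, 26.4% higher and 28.7% lower. The median log2 fold change of the members was 0.26 in total and 0.27 in polysome-associated mRNA, against −0.02 and −0.03 over all genes. Their share of the normalised total mRNA went from 2.16–2.41% in control cells to 2.72–3.09% with LPS, and that of polysome-associated mRNA from 2.01–2.20% to 2.46–2.97%, with no overlap in either RNA type. Of the total mRNA calls, 22 higher and 7 lower also passed with each experiment left out in turn. The polysome count of 34 became 12 without experiment 1, 40 without experiment 2 and 13 without experiment 3, where 34.7%, 64.5% and 37.6% of all genes passed. At an FDR of 0.05 LPS called 26 members in total mRNA (45.6% of all genes) and 13 in polysome-associated mRNA (32.5%).

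**Figure D2:**
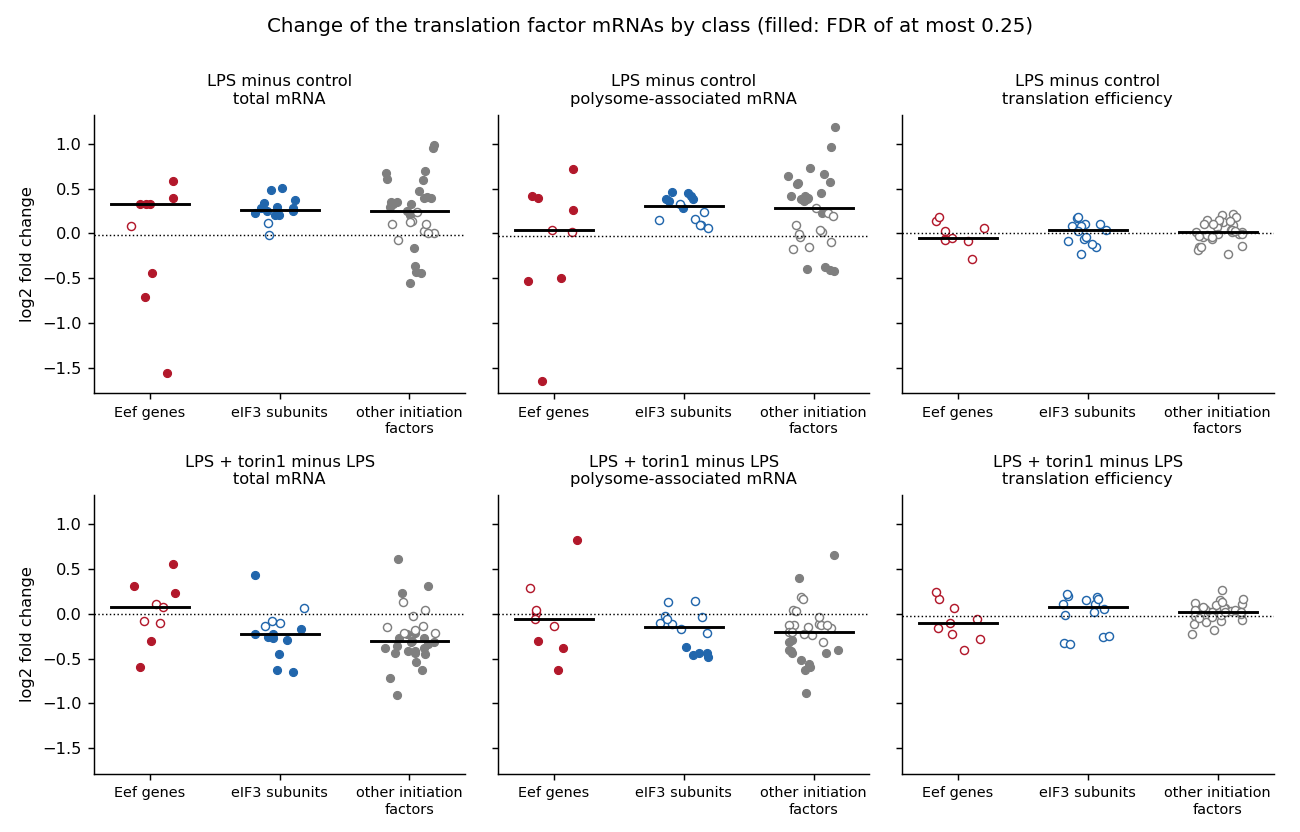
Fitted log2 fold changes of the 54 members by class for LPS minus control (top) and LPS with torin1 minus LPS (bottom), in total mRNA, polysome-associated mRNA and translation efficiency. Filled points passed the FDR of 0.25, black bars are class medians and the dotted line is the median of all genes. After LPS the 12 eIF3 subunits that passed in total mRNA all lie above 0, and no point is filled in the translation efficiency panels.

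The Eef genes moved in both directions after LPS. In total mRNA 5 were higher and 3 lower, and in polysome-associated mRNA 4 and 3. The 3 that fell were Eef2k, Eef2kmt and Eefsec. Eef2k (chr7:120842831-120907450, plus strand, GRCm38) stood at 9.22, 9.66 and 8.09 CPM in total mRNA of control cells and at 2.74, 3.40 and 2.97 CPM with LPS. On polysomes it went from 17.6, 12.9 and 10.3 CPM to 4.82, 4.94 and 3.29 CPM. All LPS values lay far below all control values, with a log2 fold change of −1.56 ± 0.16 (SE, adjusted p = 3.51e-05, edgeR) and −1.64 ± 0.24 (adjusted p = 0.000574), the largest fall among the members in both RNA types. Eef2kmt, the methyltransferase of eEF2, fell from 37.8, 40.2 and 34.0 CPM to 18.6, 24.9 and 24.8 CPM in total mRNA (−0.71 ± 0.13, adjusted p = 0.00121), and on polysomes by 0.53 on the log2 scale (adjusted p = 0.0473, and 0.327 without experiment 1). Eefsec, which brings selenocysteine to the ribosome, fell by 0.44 in total and 0.50 in polysome-associated mRNA (adjusted p = 0.0241 and 0.0165). It lies across Gm44265 on the same strand, and reads shared with that gene cannot be assigned.

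Eef1e1 moved the other way. This gene encodes a small accessory protein of the multi-tRNA-synthetase complex. Its total mRNA stood at 85.2, 87.7 and 73.1 CPM in control cells and at 137, 116 and 116 CPM with LPS, and its polysome-associated mRNA at 117.95, 145 and 104 CPM against 221, 198 and 185 CPM. The groups did not overlap, and the log2 fold changes were 0.58 ± 0.12 (adjusted p = 0.00230) and 0.72 ± 0.17 (adjusted p = 0.00901).

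Eef1b2 and Eef1g, subunits of the eEF1A exchange factor, rose in total mRNA by 0.39 and 0.33 on the log2 scale (adjusted p = 0.00997 and 0.0335). Eef1a1 stood at 6416, 8148 and 6025 CPM in control cells and at 10223, 8025 and 7610 CPM with LPS. Its groups overlapped through experiment 2, and its log2 fold change of 0.33 ± 0.16 (adjusted p = 0.118) did not pass without experiment 1 (adjusted p = 0.570) or 3 (0.258). Reads from processed copies of this gene, where such reads were counted with it, cannot be told apart. Eef2 stood at 2449, 2035 and 2383 CPM against 2246, 3553 and 2808 CPM with LPS, again with an overlap. Its log2 fold change of 0.33 ± 0.17 (adjusted p = 0.133) became 0.07 (adjusted p = 0.757) without experiment 2. Eef1d had a log2 fold change of 0.08 (adjusted p = 0.616), and it shares its strand with Naprt.

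Every call among the eIF3 subunits after LPS was an increase. In total mRNA 12 of 14 rose and the other two did not pass, and in polysome-associated mRNA 7 rose and 7 did not pass. Eif3c, a core subunit, stood at 345, 352 and 332 CPM in control cells and at 559, 465 and 440 CPM with LPS, with all LPS values above all control values. Its log2 fold change was 0.51 ± 0.11 in total (adjusted p = 0.00310) and 0.46 ± 0.16 in polysome-associated mRNA (adjusted p = 0.0517, and 0.302 without experiment 3). Eif3e went from 203, 211 and 183 CPM to 312, 242 and 222 CPM in total mRNA (0.38, adjusted p = 0.0423). Eif3k went from 174, 182 and 162 CPM to 284, 221 and 205 CPM on polysomes (0.45, adjusted p = 0.0492, and 0.372 without experiment 1), again without overlap. Eif3a stood at 773, 651 and 769 CPM of total mRNA with LPS, which overlapped its control values (0.22, adjusted p = 0.124), and this call was lost without experiment 1 (0.285) or 3 (0.323). Eif3f (−0.01, adjusted p = 0.924) and Eif3l (0.12, adjusted p = 0.325) did not pass in total mRNA. Across the 14 subunits the fitted polysome-associated changes ran from 0.06 to 0.46. Single experiments varied. On polysomes Eif3a, Eif3f, Eif3j1, Eif3j2, Eif3l and Eif3m were lower with LPS in experiment 2, and Eif3b and Eif3g in experiment 1. Eif3c, Eif3d, Eif3e, Eif3h, Eif3i and Eif3k rose there in every experiment. In total mRNA the calls of Eif3c, Eif3d, Eif3e, Eif3h and Eif3k held with each experiment left out in turn.

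Among the factors that choose the start codon, Eif1 and Eif1a had the largest increases of all members. Eif1 (chr11:100319885-100322096, plus strand) encodes eIF1, which keeps the scanning ribosome open until a start codon is met. It stood at 78.2, 90.1 and 95.5 CPM in total mRNA of control cells and at 166, 152 and 202 CPM with LPS, and on polysomes at 82.7, 100.8 and 94.8 CPM against 232, 181 and 220 CPM. The lowest LPS value was well above the highest control value in both RNA types (0.98 ± 0.16, adjusted p = 0.000545, and 1.18 ± 0.16, adjusted p = 0.000299). Eif1a, which encodes an eIF1A, went from 206, 229 and 178 CPM to 495, 367 and 326 CPM in total and from 130, 184 and 135.7 CPM to 352, 252 and 278 CPM in polysome-associated mRNA (0.96 ± 0.16, adjusted p = 0.000722, and 0.97 ± 0.20, adjusted p = 0.00400). These groups did not overlap either. Eif1 has 3 named pseudogenes in the annotation. Eif5, the GTPase activator of eIF2, rose by 0.47 and 0.58 (adjusted p = 0.0208 and 0.0235).

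All 4 eIF2 genes were higher with LPS in both RNA types. Eif2s2, the beta subunit, stood at 142, 130 and 123.8 CPM in control cells and at 269, 197 and 167 CPM with LPS in total mRNA (0.68 ± 0.16, adjusted p = 0.00578). Eif2s1, the alpha subunit that the eIF2 kinases phosphorylate, went from 258, 273 and 248 CPM to 403, 314 and 306 CPM (0.39 ± 0.12, adjusted p = 0.0209), without overlap in either case. The polysome calls of Eif2s1 and Eif2s3y were lost without experiment 1 (adjusted p = 0.523 and 0.564) or 3 (0.522 and 0.438). That of Eif2s3x was lost without experiment 1 (0.312). In total mRNA the call of Eif2s3y was also lost without experiment 1 (adjusted p = 0.456). Of the 5 genes of eIF2B, the exchange factor of eIF2, Eif2b3 was higher in total mRNA (0.29, adjusted p = 0.0685) and Eif2b4 lower (−0.43, adjusted p = 0.0138), and the other 3 did not pass. Eif1ad and Eif2d, which are named for their likeness to initiation factors, fell in total mRNA by 0.44 and 0.36 (adjusted p = 0.00520 and 0.0328).

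In total mRNA the eIF4F genes Eif4a1, Eif4e, Eif4g1 and Eif4g3 passed as higher after LPS, and so did Eif4g2, a relative of the scaffold. Eif4g2, which encodes a scaffold that lacks the eIF4E-binding part, stood at 1868, 2116 and 1917 CPM in control cells and at 3273, 2810 and 2860 CPM with LPS (0.60 ± 0.11, adjusted p = 0.00114), and on polysomes at 1627, 2265 and 1937 CPM against 3817, 2779 and 3098 CPM (0.73 ± 0.19, adjusted p = 0.0125). No LPS value reached down to the control range. Eif4a1, the main helicase, went from 868, 987 and 800 CPM to 1590, 1244 and 1197 CPM (0.60 ± 0.14, adjusted p = 0.00477). Eif4e stood at 188, 204 and 170 CPM against 279, 231 and 204 CPM, which touched at 204, with a log2 fold change of 0.34 ± 0.13 (adjusted p = 0.0565). Eif4g1, the classical scaffold, stood at 938, 953 and 1071 CPM against 1029, 1159 and 1217 CPM, which overlapped (0.20, adjusted p = 0.161, and 0.412 and 0.291 without experiments 2 and 3). Eif4g3 rose by 0.35 (adjusted p = 0.0290), from 204, 199 and 233 CPM to 238, 265.2 and 308 CPM. Eif5a went from 886, 917 and 909 CPM to 1085, 1229 and 1240 CPM of total mRNA (0.39 ± 0.09, adjusted p = 0.00670), and Eif6 from 124.8, 126 and 107.1 CPM to 175, 227 and 178 CPM (0.70 ± 0.12, adjusted p = 0.00107).

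**Figure D3:**
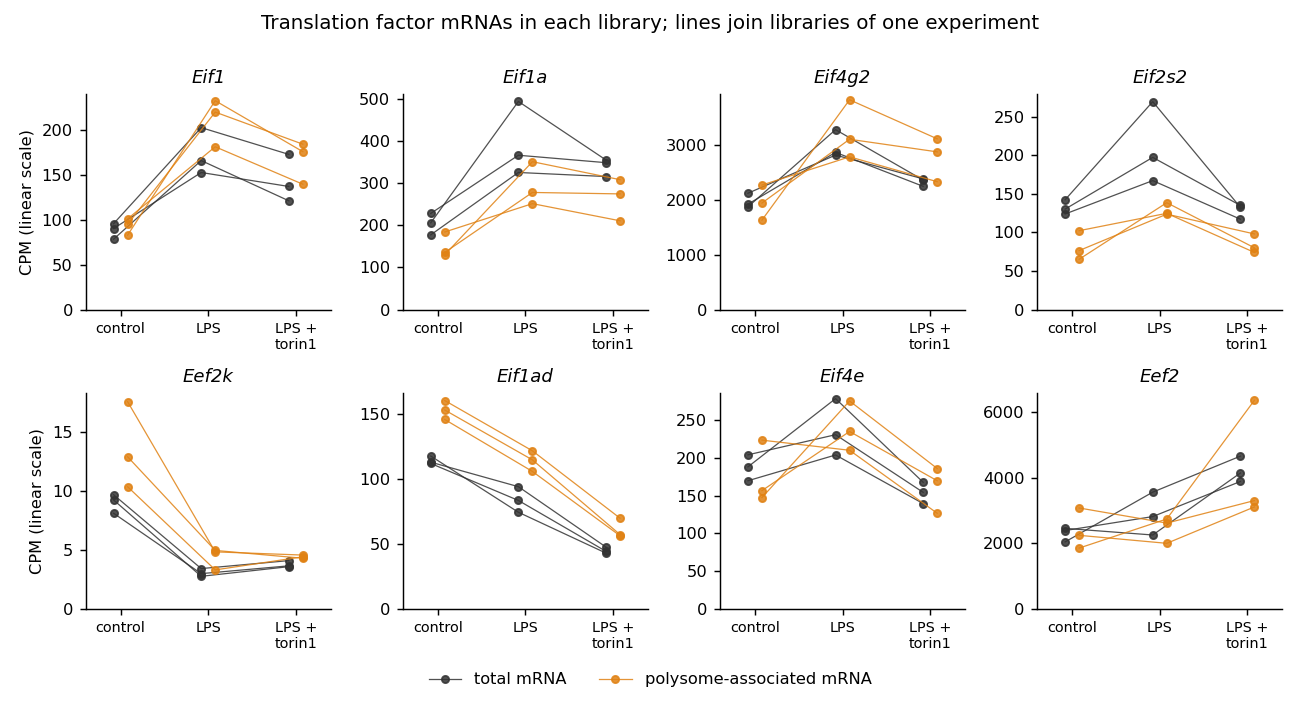
Normalised level (CPM, linear axis from 0) of 8 members in each library, with lines joining the libraries of an experiment, total mRNA in black and polysome-associated mRNA in orange. Eif1, Eif1a, Eif4g2 and Eif2s2 are higher with LPS in all 3 experiments, Eef2k and Eif1ad are lower in all 3, Eif4e is lower with torin1 than with LPS in all 3, and Eef2 is highest with torin1.

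With torin1 ahead of LPS, most factor mRNAs were lower in total mRNA than with LPS alone. Against LPS, 7 members (13%) were higher and 31 (57.4%) lower in total mRNA, where 53.7% of all genes passed, 27.3% higher and 26.4% lower. In polysome-associated mRNA 3 (5.56%) were higher and 20 (37.0%) lower, where 38.4% of all genes passed, 20.3% higher and 18.2% lower. This comparison and that of LPS with control share the LPS libraries, so that a high LPS value enters both in opposite directions. The members' median log2 fold change was −0.23 in total and −0.17 in polysome-associated mRNA, against 0.00 and −0.00 over all genes. The total mRNA count of 38 was 26, 32 and 25 without experiments 1, 2 and 3 (46.1%, 47.9% and 35.2% of all genes), and 4 higher and 17 lower members passed every time. The polysome count of 23 was 3 without experiment 1 (15.8% of all genes), 23 without experiment 2 (46.1%) and 2 without experiment 3 (10.6%), and Eif1ad alone passed every time. At an FDR of 0.05 the counts were 20 in total mRNA (29.2% of all genes) and 2 in polysome-associated mRNA (13.8%).

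Eef2 was the member that torin1 raised most on polysomes. This gene (chr10:81176631-81182498, plus strand) stood at 2246, 3553 and 2808 CPM of total mRNA with LPS and at 4137, 4651 and 3879 CPM with LPS and torin1, a log2 fold change of 0.56 ± 0.17 (adjusted p = 0.0293). On polysomes it stood at 2609, 2735 and 1992 CPM against 3296, 6355 and 3102 CPM (0.83 ± 0.30, adjusted p = 0.0959, and 0.284 without experiment 3). The torin1 values were above all LPS values in both RNA types, and experiment 2 was far above the others on polysomes. Of the remaining elongation machinery, Eef1a1 stood at 9057, 10264 and 8455 CPM of total mRNA with torin1, overlapping the LPS values (0.10, adjusted p = 0.665). On polysomes it went from 7837.2, 5305 and 6692 CPM to 8539, 7584 and 7715 CPM, higher in 3 of 3 experiments though the groups overlapped (0.29, adjusted p = 0.297, and 0.220 with the experiment as a replicate block, which passes). Eef1d was lower in both RNA types, at 301, 242 and 284 CPM with LPS against 207, 235 and 225 CPM with torin1 in total mRNA (−0.31, adjusted p = 0.0675) and by 0.39 on polysomes (adjusted p = 0.0975). Both calls of Eef1d were lost without experiment 1 (adjusted p = 0.314 and 0.450) or 3 (0.315 and 0.571).

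Of the Eef enzymes and accessory genes, Eef1e1 overlapped its control values with torin1, at 87.8, 82.9 and 73.1 CPM of total mRNA (−0.59 ± 0.12 against LPS, adjusted p = 0.00463) and at 153, 110 and 122 CPM on polysomes (−0.63, adjusted p = 0.0365, and 0.266 without experiment 3). Eef2k remained low, at 3.56, 4.07 and 3.63 CPM of total mRNA, just above the LPS values. Its difference of 0.30 (adjusted p = 0.190) did not pass without any of the 3 experiments (0.281 to 0.426). Eef2kmt stood at 26.5, 27.9 and 26.0 CPM of total mRNA, also above the LPS values (0.23, adjusted p = 0.201), and this call was lost without each experiment in turn (0.274 to 0.567).

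In eIF3, torin1 lowered 9 subunits and raised Eif3f in total mRNA, and lowered 5 on polysomes. Eif3f stood at 109, 97.2 and 115 CPM with LPS and at 148, 151 and 135.8 CPM with torin1 in total mRNA, with no overlap (0.43 ± 0.10, adjusted p = 0.00850). On polysomes it stood at 166, 160 and 184 CPM against 180, 180 and 192 CPM, which overlapped (0.14, adjusted p = 0.519). The largest falls in total mRNA were those of Eif3j1 (57.5, 39.6 and 44.9 CPM against 34.8, 26.6 and 29.2 CPM, −0.65 ± 0.16, adjusted p = 0.0115) and Eif3j2 (30.8, 22.7 and 25.8 CPM against 19.2, 16.7 and 15.6 CPM, −0.62 ± 0.13, adjusted p = 0.00698). These are near-identical copies of a gene, between which the counting may have split reads. On polysomes Eif3i stood at 516, 400 and 410 CPM with LPS and at 317, 339 and 274 CPM with torin1 (−0.48 ± 0.15, adjusted p = 0.0609), and Eif3k at 175, 181 and 152 CPM with torin1 (−0.46 ± 0.16, adjusted p = 0.0808). Neither overlapped, and both calls were lost without experiment 1 (0.401 and 0.445) or 3 (0.422 and 0.377). Eif3a, at 749, 647 and 684 CPM of total mRNA, overlapped the LPS values (−0.08, adjusted p = 0.640).

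Of the 31 other initiation factors, 20 were lower with torin1 in total and 12 in polysome-associated mRNA. Eif1ad (chr19:5366741-5371526, plus strand), which encodes a protein with an eIF1A-like fold that acts in assembly of the small ribosomal subunit, had its lowest level with torin1. Its total mRNA stood at 113.1, 117.8 and 112.1 CPM in control cells, at 94.1, 74.4 and 83.5 CPM with LPS and at 47.5, 42.9 and 44.2 CPM with LPS and torin1, and its polysome-associated mRNA at 161, 153 and 146 CPM, 122, 115 and 105.9 CPM, and 69.8, 57.2 and 56.2 CPM. No group overlapped the next. Against LPS the log2 fold change was −0.91 ± 0.10 (adjusted p = 0.000300) and −0.88 ± 0.14 (adjusted p = 0.00307). Banf1 overlaps Eif1ad on the opposite strand.

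Eif4e, the cap-binding protein, fell with torin1 to 168, 154 and 139 CPM of total mRNA, below all LPS and all control values (−0.63 ± 0.13 against LPS, adjusted p = 0.00665). On polysomes it stood at 276, 210 and 235 CPM with LPS and at 186, 127 and 170 CPM with torin1 (−0.56 ± 0.20, adjusted p = 0.0945, and 0.298 and 0.390 without experiments 1 and 3). Eif2s2 returned to 132, 134.9 and 117.03 CPM of total mRNA (−0.72 ± 0.16, adjusted p = 0.00833) and Eif2s1 to 269, 249 and 250 CPM (−0.41 ± 0.12, adjusted p = 0.0258), both below every LPS value and within or next to the control range. Eif5a, at 913, 910 and 913 CPM, also lay where the control did (−0.38 ± 0.09, adjusted p = 0.0140). Eif6 fell to 151, 144 and 138 CPM of total mRNA (−0.42, adjusted p = 0.0274) and Eif4g2 to 2356, 2377 and 2241 CPM (−0.36, adjusted p = 0.0296). Eif1 (121, 137 and 173 CPM), Eif1a (356, 349 and 316 CPM) and Eif4a1 (1175, 1247 and 1063 CPM) overlapped their LPS values, with log2 fold changes of −0.27 (adjusted p = 0.209, and 0.470 and 0.294 without experiments 1 and 2), −0.22 (0.328) and −0.21 (0.277). With the experiment as a replicate block Eif1a and Eif4a1 passed (adjusted p = 0.186 and 0.165).

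Eif4b, the cofactor of the eIF4A helicase, went against this direction. It stood at 574, 519 and 561 CPM of total mRNA with LPS and at 742, 672 and 636 CPM with torin1 (0.31 ± 0.10, adjusted p = 0.0387), without overlap. Together with Eef2, Eif3f and Eif4e3 it made up the 4 members that were higher with torin1 in total mRNA whichever experiment was left out.

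Members encoded by related genes are given next, pair by pair. Eif4e3, an atypical cap-binding protein, mirrored Eif4e in total mRNA. It stood at 24.1, 26.4 and 18.9 CPM without LPS, at 16.5, 18.1 and 12.6 CPM with LPS and at 24.8, 26.7 and 20.6 CPM with torin1. The LPS values were below both other groups (−0.56, adjusted p = 0.0230 against control, and 0.61, adjusted p = 0.0239, with torin1). The log2 fold change of Eif4e minus that of Eif4e3 was 0.90 ± 0.20 (SD, n = 3) after LPS and −1.24 ± 0.09 with torin1, and it had the same sign in every experiment. Eif4e3 overlaps Gm20696 on the same strand. Eif4e2, the third homolog, had 99.8, 120 and 99.3 CPM in control cells, then 154, 139 and 129.5 CPM with LPS and 128, 122 and 112.98 CPM with torin1, so that LPS was above both other groups (0.40, adjusted p = 0.0137 against control, and −0.22, adjusted p = 0.172 with torin1, a call that was lost without each experiment in turn).

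For Eif1b, the close copy of Eif1, total mRNA stood at 24.98, 24.01 and 26.4 CPM in control cells, then 27.2, 21.3 and 22.8 CPM with LPS and 20.9, 20.6 and 21.6 CPM with torin1. These values overlapped between control and LPS (−0.08, adjusted p = 0.604). The LPS change of Eif1 exceeded that of Eif1b by 1.06 ± 0.20 on the log2 scale (SD, n = 3). Eif1ax stood at 117.8, 112.5 and 101.3 CPM, 146, 116.6 and 104 CPM, and 103, 95.3 and 91.0 CPM in the same order, and its LPS change (0.14, adjusted p = 0.405, and 0.208 with the replicate block, which passes) was smaller than that of Eif1a by 0.81 ± 0.17. Eif4a2, the second helicase gene, stood at 298, 232 and 242 CPM, 398, 214 and 294 CPM, and 264, 194 and 207 CPM, which overlapped throughout, and the LPS change of Eif4a1 exceeded it by 0.40 ± 0.09. Its own LPS change was 0.23 (adjusted p = 0.396, and 0.145 with the replicate block, which passes). With 3 experiments an exact test of such a difference cannot go below 0.25, so the values are given without one.

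Eif2s3x and Eif2s3y, the copies of the eIF2 gamma subunit on the X and Y chromosomes, differed with torin1. Eif2s3x stood at 144, 153 and 139 CPM of total mRNA in control cells, 221, 163 and 165 CPM with LPS and 143, 132 and 131.5 CPM with torin1, where all torin1 values were below all LPS values (−0.43, adjusted p = 0.0264). Eif2s3y stood at 73.3, 68.1 and 75.2 CPM, 103, 76.5 and 77.1 CPM, and 92.4, 76.3 and 83.1 CPM in the same order, with torin1 among the LPS values (−0.03, adjusted p = 0.898). The torin1 change of Eif2s3x minus that of Eif2s3y was −0.47, −0.31 and −0.43 in the 3 experiments. Reads from positions where the copies agree cannot be assigned, and Eif2s3x has 1 named pseudogene.

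**Figure D4:**
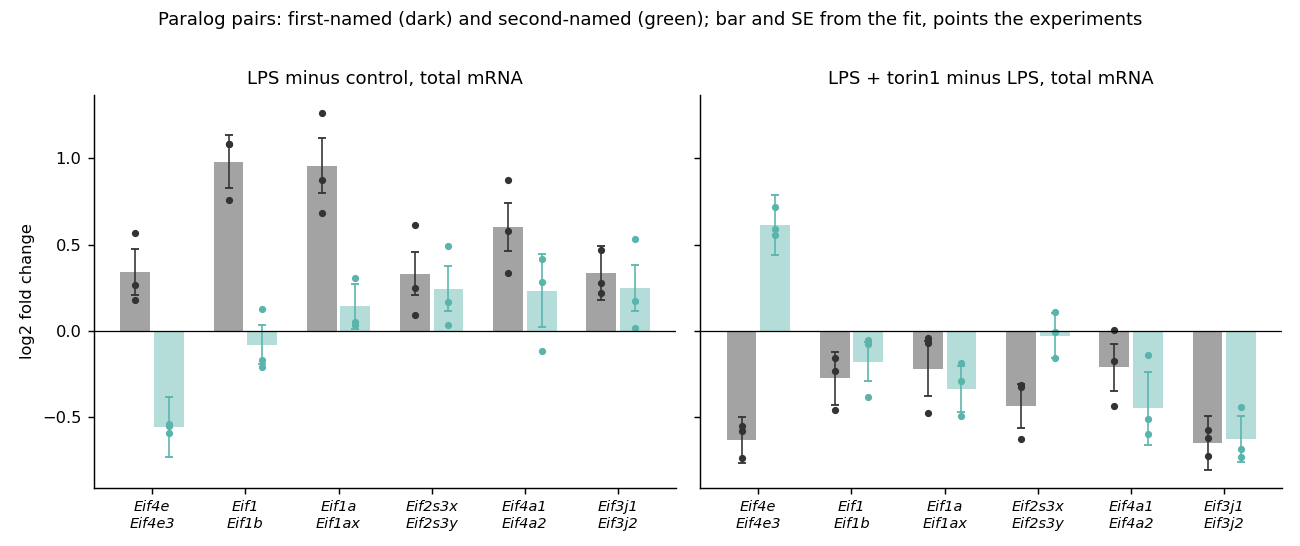
Log2 fold changes in total mRNA of 6 pairs of related members after LPS (left) and with torin1 against LPS (right), with bars and SE from the edgeR fit and points for the 3 experiments. Eif4e and Eif4e3 point in opposite directions in both panels, and after LPS Eif1 and Eif1a are far above Eif1b and Eif1ax.

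Set against control rather than LPS, torin1-treated cells held 19 members higher and 15 lower in total mRNA, where 66.7% of all genes passed (33.1% higher, 33.6% lower), and 15 higher and 11 lower in polysome-associated mRNA, where 58.2% passed (28.5% and 29.7%). These shares, 35.2% and 27.8% in total and 27.8% and 20.4% in polysome-associated mRNA, were close to the background or below it. The count of 34 in total mRNA was 19 without experiment 3 (55.4% of all genes), and that of 26 on polysomes was 11, 37 and 10 without experiments 1, 2 and 3 (40.4%, 67.8% and 37% of all genes). At an FDR of 0.05 it was 16 in total mRNA (47.5%) and 11 on polysomes (35.1%). Eef1a1 (0.43 in total, adjusted p = 0.0466, and 0.68 on polysomes, adjusted p = 0.0122), Eef2 (0.88 and 0.86, adjusted p = 0.00148 and 0.0468), Eif1 and Eif1a stood above control, and Eef2k (−1.26 and −1.60) and Eif1ad (−1.35 and −1.31) below it. The Eef genes took 1.40% to 1.67% of normalised total mRNA with torin1, against 1.23% to 1.46% with LPS and 0.995% to 1.19% in control cells. The other initiation factors took 0.934% to 0.989%, against 1.13% to 1.26% and 0.878% to 0.925%.

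No change in translation efficiency, the change on polysomes beyond that of total mRNA, was called for any member. The edgeR interaction test called 0 members in each of the 3 comparisons, and 0% of all genes passed it. The ribosomal protein mRNAs set beside the factors below were therefore not called either. This result does not set the factors apart from other mRNAs. At an unadjusted p under 0.05 it found 0 members after LPS, 1 with torin1 against LPS (Eif3f, −0.32 ± 0.14) and 0 with torin1 against control. DESeq2's Wald test called 0 and had 0 members under 0.05 unadjusted in each comparison. An analysis of partial variance (limma), which regresses polysome-associated on total mRNA, also called 0 members, with 1, 0 and 1 under 0.05, where 0.0889%, 0.187% and 0.125% of all genes passed. With the experiment as a replicate block the interaction test called 0 members, with 0, 3 and 0 under 0.05, where 0%, 0.222% and 0.0267% of all genes passed. With each experiment left out in turn it again called 0 members, and 0% of all genes passed except with torin1 against control without experiment 2, where 3.82% did and 3 members were under 0.05. The SE of a member's change was 0.218 at the median and 0.145 to 0.357 over the members with torin1 against LPS. With another tool, anota2seq, the paper reports changed translation efficiency after LPS for a subset of mRNAs, which torin1 nearly reversed. It names TOP mRNAs among those whose polysome association LPS raised. The paper also cautions that pooling fractions may hide shifts inside the heavy polysomes, a limit that holds here too.

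The fitted efficiency changes with torin1 ranged from −0.40 to 0.26. The lowest that had the same sign in every experiment were Eef2kmt (−0.40 ± 0.22, SE), Eif3k (−0.34 ± 0.19) and Eif3f, and the highest were Eif3c (0.22 ± 0.19), Eef1a1 (0.16 ± 0.24) and Eif3b (0.15 ± 0.23). Eif3b stood at 304, 382 and 487 CPM of total mRNA with LPS and at 315, 313 and 329 CPM with torin1, and on polysomes at 379, 391 and 497 CPM against 417, 357 and 375 CPM. Its groups overlapped in both RNA types. Eef2 had efficiency changes of −0.54, 0.83 and 0.17 in experiments 1, 2 and 3, without a common direction.

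The 3 classes were set side by side by their medians in each experiment. With torin1 against LPS, the class median on polysomes was −0.13 ± 0.05 for the Eef genes, −0.18 ± 0.11 for eIF3 and −0.25 ± 0.08 for the other initiation factors (mean ± SD, n = 3). The Eef median was above that of the other factors in all 3 experiments (0.09, 0.22 and 0.06, or 0.12 ± 0.08), a difference of 0.24 without the enzymes and accessory genes, and the eIF3 median in 2 of them (0.08, 0.20 and −0.05). In translation efficiency the Eef median minus that of the other factors was −0.36, −0.06 and 0.00 (−0.14 ± 0.20), and the eIF3 median differed by −0.01 ± 0.04. After LPS, polysome-associated Eef mRNAs were below the other factors in all 3 experiments (−0.39, −0.09 and −0.12), and this difference of −0.20 ± 0.17 was −0.037 when the enzymes and accessory genes were left out. The eIF3 subunits did not differ from the other factors beyond the spread (0.01 ± 0.01 on polysomes, −0.00 ± 0.05 in efficiency).

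Ribosomal protein mRNAs, the classical TOP mRNAs, gave a scale for these values, a comparison added after the data were seen. Of 74 cytosolic ribosomal protein genes, 63 were lower on polysomes with torin1 against LPS and 10 in total mRNA, where 18.2% and 26.4% of all genes were. The median efficiency of the ribosomal protein genes changed by −0.62, −0.40 and −0.69 in the 3 experiments. The 9 factor mRNAs listed as TOP mRNAs from general knowledge (Eef1a1, Eef1b2, Eef1d, Eef1g, Eef2, Eif3e, Eif3f, Eif3h and Eif4b) had a median efficiency change of −0.08 ± 0.11 (SD, n = 3). On polysomes, where 20.3% of all genes were higher and 18.2% lower, 2 of these 9 were higher (Eef2 and Eif4b) and 2 lower (Eef1b2 and Eef1d). Their median efficiency change was above that of the ribosomal protein mRNAs by 0.67, 0.27 and 0.54 in the 3 experiments, and for all 54 members the gap was 0.79, 0.30 and 0.68.

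**Figure D5:**
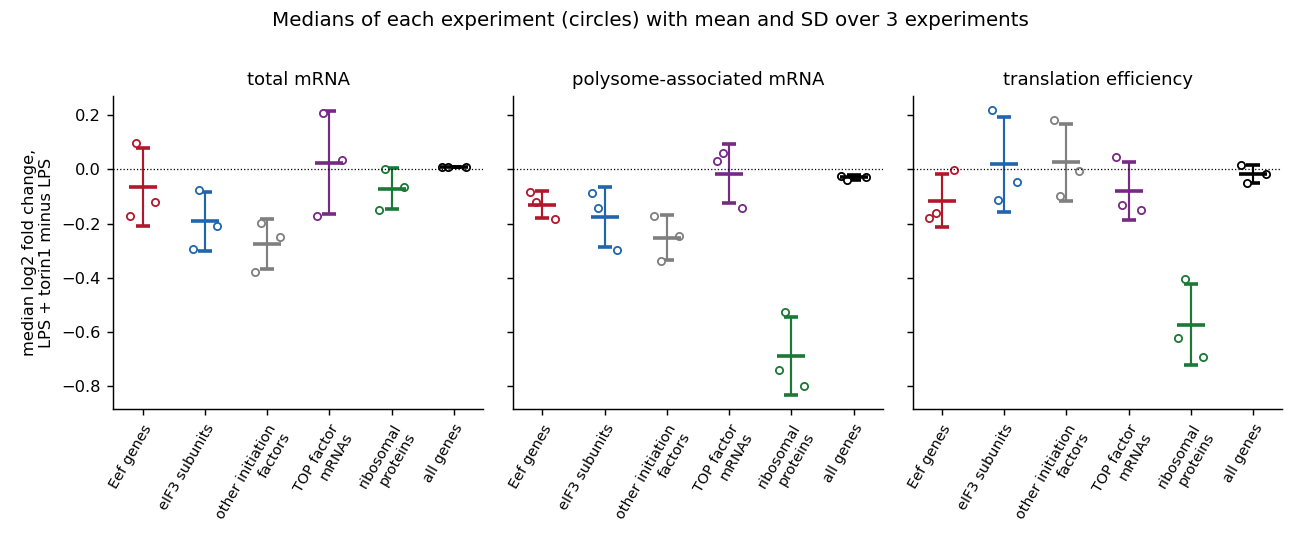
Median log2 fold change of each gene group with LPS and torin1 minus LPS in each experiment (circles), with the mean and SD over 3 experiments, for total mRNA, polysome-associated mRNA and translation efficiency. The ribosomal protein genes fall to −0.69 on polysomes and −0.57 in efficiency, while the factor groups lie between −0.25 and −0.02 and between −0.11 and 0.03.

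The start sites were read for a pyrimidine stretch. RefSeq promoter windows of GRCm38.p6 were matched for 43 of the 54 members, and 8 of them (18.6%) held a run of at least 8 bases that were each C or T on the transcript's strand between 10 bases before and 20 bases from the annotated start, where 13.8% of 8568 genes of the table did. By class this was 1 of 7 Eef genes, 2 of 10 eIF3 subunits and 5 of 26 others. The following windows, of both eIF2 gamma copies, Eif3f, Eef1a1, Eif4e and Eef2, are shown for their contrast in run length within the window. They are written 5′ to 3′ on the transcript's strand, with the longest run of C and T in capitals.
Eif2s3x: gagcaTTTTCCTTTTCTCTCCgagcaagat
Eif2s3y: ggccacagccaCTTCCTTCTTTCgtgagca
Eif3f: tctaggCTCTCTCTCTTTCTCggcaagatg
Eef1a1: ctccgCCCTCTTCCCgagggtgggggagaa
Eif4e: CCCCCTTCaggagcggttgtgcgatcagat
Eef2: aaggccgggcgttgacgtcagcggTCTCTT
They lie at chrX:94212632-94212661 (minus strand), chrY:1010585-1010614 (plus), chr7:108934405-108934434 (plus), chr9:78481705-78481734 (minus), chr3:138527258-138527287 (plus) and chr10:81176621-81176650 (plus). Within the window the run was 16 bases in Eif2s3x and 15 in Eif3f, the longest of the 43, and 12 in Eif2s3y. In torin1 against LPS these 3 genes had polysome-associated log2 fold changes of −0.32, 0.14 and 0.03 in the order Eif2s3x, Eif3f and Eif2s3y, none of which passed, apart from Eif2s3x with the replicate block (adjusted p = 0.159). The longest run was 10 bases in Eef1a1, 8 in Eif4e and 6 in Eef2. Those of Eif4e and Eef2 reach the edge of the window, so these lengths are lower limits and the full runs may be longer. An annotated start need not be the cap site used in these cells, and a match is only a description.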

How the data were processed

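Gene counts were analysed as deposited. Per the study's methods, the authors prepared stranded, rRNA-depleted libraries, sequenced them paired-end, aligned reads to GRCm38 with Hisat2, counted them with featureCounts over Ensembl genes, and dropped genes with 0 counts in any library. Whether the counting used strand is not given in the sources used here, which bears on members that overlap a gene on the opposite strand (Eif1ad, Eef2k, Eef2kmt and Eif2b4 among those named). The 11243 genes were fitted with edgeR 4.0.16 (quasi-likelihood F test, TMM) in R 4.3.3, separately for total and polysome-associated mRNA (9 libraries each), with Benjamini-Hochberg adjustment over all genes and an FDR of 0.25. Translation efficiency was the interaction in a model of all 18 libraries and also needed a 1.2-fold change. The study's own tool, anota2seq, was not used here, and a partial variance model in limma 3.58.1 stood in as an alternative, beside DESeq2 1.42.0, RLE factors, a minimum of 10 counts, a replicate block and each experiment left out. Tests were checked on simulated data, with planted changes much larger than the efficiency changes fitted for the members. The check does not show whether changes of that smaller size would be detected. CPM per library used TMM over all libraries, log2 values per experiment a pseudocount of 0.5, and levels per kilobase exon lengths of GENCODE M21. Genes were given in detail by rule: per class up to 3 called members with the largest polysome change in the same direction in every experiment, up to 3 per direction in efficiency, a fixed set (Eef1a1, Eef2, Eif4e, Eif4g1, Eif4a1, Eif2s1, Eif5a and Eif3a) and related pairs. Other genes, among them Eif2s2, Eif2d, Eefsec and Eif4b, were named after their values were seen. The members and lists were chosen with earlier results of these data known.

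Experiment numbers come from the labels. Both libraries of a lysate deviated together (mean r = 0.480, lowest 0.391), and so did total mRNA libraries of an experiment (0.337, lowest 0.149). Among polysome libraries of an experiment the mean was 0.290. Polysome libraries of LPS with and without torin1 paired at 0.488, 0.740 and 0.634 in experiments 1, 2 and 3. Polysome pairs with control were weaker, from −0.0918 in experiment 2 to 0.386 in experiment 3. The main tests had no term for this pairing. The block is an alternative, given beside a gene's result where it changes the call. No 2 libraries agreed within sampling noise (lowest chi-square per degree of freedom 26.3).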

Additional observations from a re-analysis of the deposited data

Results flagged for a closer look

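Eif2d encodes an alternative factor that can deliver tRNA to the ribosome. With torin1 against LPS its changes in the RNA types had opposite signs in all 3 experiments. On polysomes there was almost no change in experiments 1 and 2. Total mRNA went up by 0.18, 0.16 and 0.04 on the log2 scale, from 30.3, 37.2 and 36.4 CPM to 34.4, 41.7 and 37.5 CPM, while polysome-associated mRNA changed by −0.01, −0.00 and −0.17. The change in translation efficiency was −0.19 ± 0.19 (SE) and did not pass the edgeR interaction test. Neither RNA type passed on its own (edgeR, adjusted p = 0.468 in total and 0.914 in polysome-associated mRNA), but total mRNA passed with the experiment as a replicate block (adjusted p = 0.201).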

How the results depend on the processing

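The counts of called members turned mostly on the threshold and on single experiments. At an FDR of 0.05 they were 26 and 13 after LPS (total and polysome-associated mRNA), 20 and 2 with torin1 against LPS, and 16 and 11 with torin1 against control. With each experiment left out in turn, polysome counts ran from 12 to 40 after LPS, from 2 to 23 with torin1 against LPS and from 10 to 37 with torin1 against control, and total mRNA counts from 25 to 32 with torin1 against LPS and from 19 to 30 with torin1 against control. Each of those fits holds fewer libraries. The polysome counts were highest without experiment 2 in each comparison, at 40, 23 and 37. The cause of these differences was not tested. Without the Eef enzymes and accessory genes the Eef median minus that of the other factors was −0.037 after LPS and 0.24 with torin1 on polysomes. With the replicate block the counts were 44 and 34 after LPS, 44 and 26 with torin1 against LPS, and 40 and 31 with torin1 against control, all within 1.5 times those without it, where 73.1% and 62.8%, 64% and 49.7%, and 73.5% and 66.3% of all genes passed. No called change turned direction in any alternative run. Changes in translation efficiency, none of which was called, did: with torin1 against LPS Eif3f was 0.037 and Eif3b −0.045 in the partial variance model, and Eif3c was −0.0075 in that model with the block. Of the values for single named genes under the alternatives, 1926 kept their side of the threshold, 27 gained a call and 159 lost it.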

Other observations

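Regulators and partners of the factors were taken from a list fixed by function. Of 22 such genes in the table, 10 were higher and 6 lower after LPS in total mRNA, and 6 were higher and 9 lower with torin1 against LPS (edgeR, FDR 0.25), where 66.5% and 53.7% of all genes passed. On polysomes the counts were 7 and 6 after LPS and 6 and 4 with torin1 against LPS, where 55.1% and 38.4% of all genes passed. Pdcd4, an inhibitor of eIF4A, stood at 5.11, 7.28 and 6.27 CPM of total mRNA in control cells, at 2.21, 2.77 and 2.23 CPM after LPS and at 11.01, 13.2 and 9.67 CPM with torin1, so that no groups overlapped (−1.37, adjusted p = 0.000284, and 2.23, adjusted p = 0.000110). Eif2ak2, the double-stranded RNA-activated kinase of eIF2, stood at 172, 276 and 188 CPM, 736, 594 and 553 CPM, and 305, 400 and 288 CPM in the same order (1.57, adjusted p = 0.000138, and −0.92, adjusted p = 0.00711). Paip2, an inhibitor of the poly(A)-binding protein, stood at 39.4, 39.2 and 35.998 CPM, 37.4, 35.96 and 29.7 CPM, and 64.9, 69.8 and 66.2 CPM, with the torin1 values alone set apart (0.96, adjusted p = 0.000241, against LPS).

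Among eIF4E regulators, Mknk2, a kinase of eIF4E, fell by 1.26 after LPS and was 0.80 higher with torin1 (adjusted p = 0.000791 and 0.0177), and Eif4ebp2, an eIF4E-binding protein, fell by 0.79 and was 0.48 higher (adjusted p = 0.00640 and 0.0829). Mknk1, the other eIF4E kinase on the list, went the other way in total mRNA. Its control values were 33.0, 27.5 and 25.7 CPM. They were 36.2, 34.3 and 34.1 CPM with LPS and 30.4, 26.8 and 28.0 CPM with torin1, with LPS above both other groups. For Eif4ebp1 the log2 fold change after LPS was 0.33 (adjusted p = 0.224). Dhps, which makes the hypusine of eIF5A, rose by 0.61 after LPS (adjusted p = 0.00153).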
